A study of Mus musculus with 265 samples.

Results

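The Notch pathway was followed through the accessible chromatin of 8 genes: the receptors Notch1 and Notch2, the nuclear partners Rbpj and Maml1, the target genes Hes1, Nrarp and Dtx1, and the Hes1-related gene Hes6. Their members are the deposited regions whose nearest protein-coding start site in the GENCODE vM21 annotation was that of one of these genes and lay within 50 kb. The rule found 25 of the 20103 regions on mm10: 7 for Notch1, 6 for Hes1, 3 for Nrarp, 2 each for Notch2, Hes6, Dtx1 and Maml1, and 1 for Rbpj. The cells were B3 cells, a mouse pre-B line with an inducible ERt2-Ikaros protein, in which the transcription factor Ikaros is joined to a hormone-binding domain and enters the nucleus once 4-hydroxytamoxifen (4OHT) is added. All groups carry the fusion. The 0-hour group was collected at the start, and the 24-hour group after 24 hours of 4OHT, which the labels give as 20mM with a further dose about midway. Single cells were captured in 4 Fluidigm C1 runs, runs 1 and 2 at 0 hours and runs 3 and 4 at 24 hours, and cut by the Tn5 transposase for single-cell ATAC-seq. The system is a single cell line, and no source says that the runs of a time-point came from separate cultures, so that p-values measure only the spread between these captures, which may be technical. The bulk samples were not analysed here.

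In the Notch pathway, a ligand on a neighbouring cell leads to cleavage of the receptor, and the freed intracellular domain moves to the nucleus. There it joins the DNA-binding protein RBPJ and a Mastermind-like coactivator such as MAML1 and switches on genes such as Hes1, Nrarp and Dtx1. In lymphocyte development the pathway favours the T lineage over the B lineage, and Ikaros is known as a repressor of Notch targets, among them Hes1. The core letters that Ikaros recognises, GGGAA, are also part of the RBPJ core TGGGAA.

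The matrix held 48, 47, 60 and 72 cells in runs 1 to 4, where the labels list 48, 63, 75 and 73. The runs summed to between 92639 and 164357 counts, with a median of 2898 counts per cell in run 1 and 1676 to 1839.5 in the others. Of the pre-B markers, 9 of 10 genes had a region, with Rag1 as the exception, and their summed level ran from 2.67 to 5.81 counts per cell. Of the T cell markers 4 of 8 had a region, at 0.208 to 0.604 counts per cell, and Cd3e, Cd3g, Cd4 and Cd8a had none. The myeloid markers had a region in 2 of 8 genes, at 0.05 to 0.0851 counts per cell.

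Most of the 25 regions lay away from a start site. The gene's start site was within 1 kb of 6 of them (24%), against 43.7% of all regions. Distances are given from here on to the start of the longest coding transcript, along the direction of the gene, since the first annotated start of Notch1 lies 12841 bp and that of Rbpj 124062 bp before it. A member region was 66 to 200 bp wide with a median of 131 bp, against 141 bp overall. It was detected in a median of 12 of the 227 cells, from 5 to 52, against 13 overall. Each region of the matrix was detected in at least 5 cells, a minimum that 11 member regions reached within each time-point. It was reached at 0 hours but not at 24 hours by 6 members (4737 of all regions): those of Notch1 at -9667 and +10753 bp, of Hes1 at -3817 and +5246 bp, of Hes6 at -1033 bp and of Dtx1 at +7316 bp. It was reached at 24 hours alone by 4 members (2540 of all regions): those of Notch1 at +20306 bp, Notch2 at -83 bp, Dtx1 at +5270 bp and Nrarp at +5110 bp. The 10 regions entered the matrix through the time-point at which more cells had signal, so their directions and tests, and those of the gene sums that hold them, are given as a description. All 25 sequences had a single copy in the genome, and their median GC content was 59.4% (58.2% in all regions).

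The sequences of 5 regions are shown, because the values described later turn on them: the region at the Hes1 promoter, 2 Notch1 regions in introns, the Dtx1 intron region and the region at the Hes6 start. They are the reference sequence of mm10 read 5′ to 3′ along the gene's strand, and the capitals mark each GGGAA, with its preceding T where there is one, or the complement of these letters where they lie on the other strand.
Hes1, chr16:30065165-30065314, plus strand, centred at -101 bp: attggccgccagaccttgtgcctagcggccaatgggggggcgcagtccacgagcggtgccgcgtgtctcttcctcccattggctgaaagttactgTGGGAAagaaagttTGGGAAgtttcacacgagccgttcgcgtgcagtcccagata
Notch1, chr2:26513424-26513553, minus strand, centred at -9667 bp: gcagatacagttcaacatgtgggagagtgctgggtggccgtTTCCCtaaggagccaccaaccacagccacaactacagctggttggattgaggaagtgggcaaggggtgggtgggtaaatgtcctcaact
Notch1, chr2:26483673-26483798, minus strand, centred at +20086 bp: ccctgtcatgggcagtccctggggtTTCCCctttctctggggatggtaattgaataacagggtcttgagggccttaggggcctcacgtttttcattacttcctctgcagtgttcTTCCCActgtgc
Dtx1, chr5:120706607-120706707, minus strand, centred at +5270 bp: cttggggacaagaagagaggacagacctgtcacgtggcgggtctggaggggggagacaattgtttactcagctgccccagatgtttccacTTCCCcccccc
Hes6, chr1:91413231-91413380, minus strand, centred at -84 bp: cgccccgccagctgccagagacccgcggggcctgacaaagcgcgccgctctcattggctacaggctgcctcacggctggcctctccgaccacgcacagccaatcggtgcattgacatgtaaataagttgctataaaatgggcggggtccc

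The Hes1 region held TGGGAA 2 times on the plus strand, with starts 14 bp apart at positions 30065260 and 30065274, and the first of them is preceded by G, giving GTGGGAA. Motifs were searched on both strands in windows of 200 bp around each region's middle, and GTGGGAA contains TGGGAA, which contains GGGAA. The core GGGAA was found in 11 of the 25 windows (48.5% of all 20103 windows), TGGGAA in 4 of 25 (14.5% of all) and GTGGGAA in 3 of 25 (3.61% of all). The 3 windows with GTGGGAA were those of the Hes1 promoter region, the Notch1 region at +20086 bp and the Dtx1 region at +5270 bp, and in the last the match lies outside the region as printed. CACNAG, the N box to which HES proteins bind, was found in 9 of 25 windows (36.4% of all), with 3 matches in the Hes1 promoter window. A match says only that the letters are present in these windows.

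No member region passed the test for a change between the time-points across all 20103 regions. In the quasi-likelihood test of edgeR, adjusted by Benjamini-Hochberg, 0 of 25 passed an adjusted p of 0.05, where 0.0547% of all regions did, and the lowest adjusted p among members was 0.316. At an unadjusted p under 0.05 there were 2 member regions (8% of 25) and 12.1% of all regions. They were the Notch1 region at -9667 bp and the Dtx1 region at +5270 bp, which met the minimum of 5 cells through 1 time-point only. DESeq2 on the same sums called 0 of 25 members (0% of all regions), with 0 at an unadjusted p under 0.05 (5.4% of all). At an unadjusted p under 0.05, the edgeR fits had 0 members without 0-hour run 1 (7.55% of all regions), 0 without run 2 (5.37% of all) and 4 without 24-hour run 3 (19.7% of all). With a run left out, its time-point is a single run, which is assumed to vary like the 2 runs of the other time-point. The fitted change at 24 hours against 0 hours was above 0 in 14 regions and below 0 in 11. Its median was 0.09 on the log2 scale over the members, also with the region that had no 0-hour count set at its bound, and -0.06 over all regions. Shares of cells did not overlap between the time-points in 8 member regions. Both 24-hour runs lay below both 0-hour runs in 6 of them (24%, against 33.7% of all regions) and above in 2 (8%, against 8.59% of all), of which the Dtx1 region at +5270 bp was 1. On the normalized CPM scale (counts scaled to a common library total) the runs lay apart in 5 lower regions (25.7% of all regions) and 5 higher ones (19.3% of all). With a run left out, fewer shares are compared, and the lower regions then numbered 7 without run 1 (39.3% of all regions), 16 without run 2 (63.1% of all), 12 without run 3 (51.1% of all) and 11 without run 4 (44.6% of all). The higher regions numbered 8 without run 1 (31.3% of all), 2 without run 2 (11.9% of all), 6 without run 3 (18.3% of all) and 4 without run 4 (19.9% of all).

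**Figure D1:**
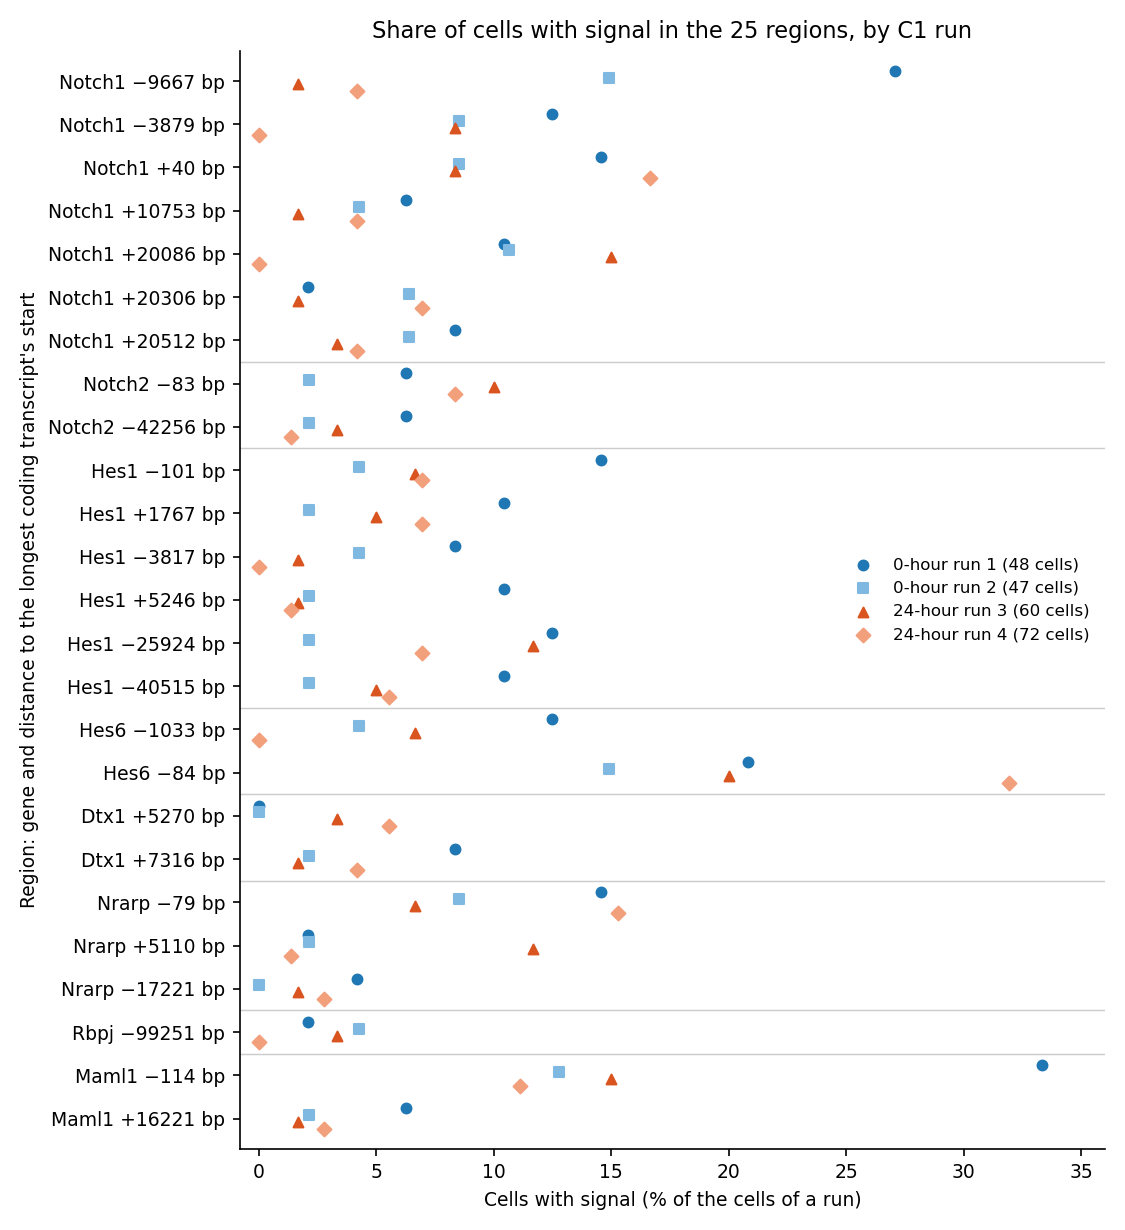
Share of the cells of each run with signal (x axis, percent) in each of the 25 regions (y axis, gene and distance to the start of its longest coding transcript), with 1 point for each C1 run. Run 1 was the highest of the 4 in 16 regions, and the Notch1 region at -9667 bp is the member in which both 0-hour points stand farthest to the right of both 24-hour points.

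Run 1, with the highest counts per cell, had the highest share of the 4 runs in 16 of the 25 member regions, and in 51.8% of all regions. Run 2 lay below run 1, at the same time-point, in 20 of the 25 (71.4% of all regions). Any signal in the 25 regions was found in 81.2% of cells of run 1, 59.6% of run 2, 80.0% of run 3 and 66.7% of run 4, and the 163 cells with signal had a median of 2366 counts against 1296 in the others. In cells thinned to 837 counts each, the shares of 5 member regions lay lower (20.1% of all regions) and of 2 higher (14.7% of all) at 24 hours without overlap. The 23 cells with fewer counts were left out, so that thinned values rest on 48, 46, 47 and 63 cells of runs 1 to 4. The fitted values use sums scaled by run. SE is the log2 change divided by the square root of edgeR's F.

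The receptor gene Notch1, which instructs the T lineage in lymphoid progenitors, held the member region with the largest gap between time-points in shares of cells. It lay at chr2:26513424-26513553, upstream of the longest coding transcript (-9667 bp) and in an intron of the longer transcript Notch1-206. Signal was found in 13 of 48 cells of run 1 (27.1%), 7 of 47 of run 2 (14.9%), 1 of 60 of run 3 (1.67%) and 3 of 72 of run 4 (4.17%). The exact (Clopper-Pearson) 95% intervals were 15.3% to 41.8% and 6.2% to 28.3% at 0 hours and 0.0422% to 8.94% and 0.868% to 11.7% at 24 hours, which cover counting error only. Both 0-hour runs were higher than both 24-hour runs. The log2 change was -1.95 (SE 0.83) in edgeR, with an unadjusted p of 0.0226 and an adjusted p of 0.316. It kept its sign in each alternative, with an adjusted p of 0.206 to 0.915. Its size depended on the 24-hour run left out, at -1.25 without run 3 and -3.56 without run 4, where the 24-hour value rests on 1 count. In cells thinned to 837 counts each, signal was left in 4.17% and 6.52% of the 0-hour cells and in 0% of the cells of both 24-hour runs, so that no size of change is given for thinned cells.

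A second Notch1 region before the longest coding transcript, at -3879 bp and also in an intron of Notch1-206, was open in 12.5%, 8.51%, 8.33% and 0% of the cells of runs 1 to 4. The 0 of 72 cells in run 4 allow a share of up to 4.17%, and run 3 was close to run 2. The log2 change was -1.46 (SE 1.01), with an adjusted p of 0.602. Without 24-hour run 3 its adjusted p was 0.0560, the smallest of any member region over all alternatives, in a fit whose only 24-hour run had 0 counts there. At the Notch1 start itself, in the first exon of Notch1-201 (+40 bp), signal was found in 14.6%, 8.51%, 8.33% and 16.7% of cells. The groups overlapped there, and the log2 change was 0.60 (SE 0.69).

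The other 4 Notch1 regions lie in introns 2 and 4 of Notch1-201. The region in intron 4 with GTGGGAA, at +20086 bp, had signal in 10.4% and 10.6% of 0-hour cells, in 15% of run 3 and in 0 of the 72 cells of run 4. The 24-hour runs were the highest and the lowest of the 4, and the log2 change of 0.33 (SE 0.91) had an adjusted p of 0.926. Its neighbours at +20306 and +20512 bp had signal in 1.67% to 6.94% and in 3.33% to 8.33% of cells. The intron 2 region at +10753 bp had signal in 1.67% to 6.25%. Summed over its 7 regions, Notch1 had 364 and 376 counts at 0 hours on the normalized CPM scale and 283 and 301 at 24 hours. The 24-hour runs were both lower, by a log2 change of -0.34 (SE 0.37) with an adjusted p of 0.773. Without the 3 regions that met the minimum through 1 time-point only, among them that at -9667 bp, the runs had 206, 229.8, 259 and 161 normalized CPM and overlapped. Within 10 kb of the first annotated start of Notch1 lie only the regions at -9667 and -3879 bp, without that at +40 bp, and their sum, which holds the region at -9667 bp, gave -1.76 (SE 0.62, adjusted p = 0.237).

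**Figure D2:**
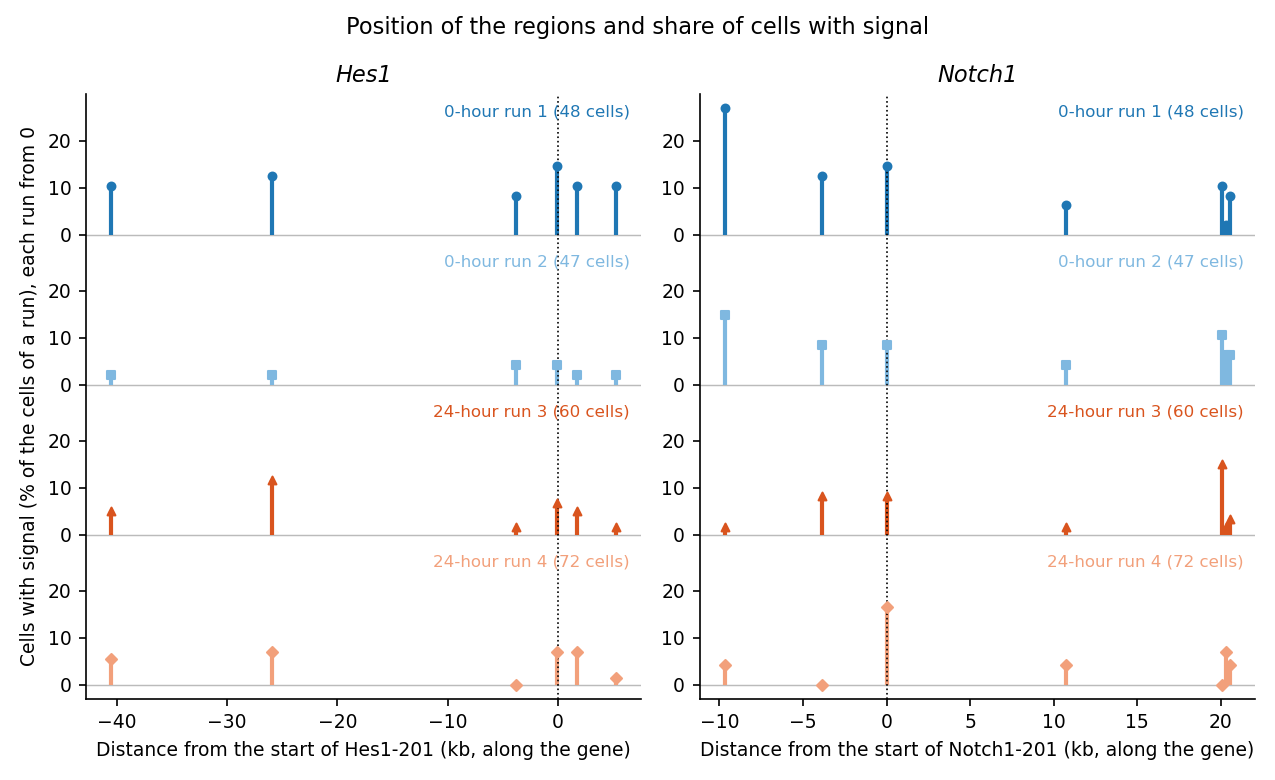
Position of the Hes1 regions (left) and Notch1 regions (right) along the gene in kb from the start of the longest coding transcript (dotted line), with the share of cells with signal in each run drawn upward from 0 in percent. For Notch1, the tallest line of run 1 (27.1%) is the region at -9667 bp, where run 3 reaches 1.67% and run 4 4.17%. For Hes1, the lines of run 2 stay at or below 4.26%.

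Notch2, the receptor needed for marginal zone B cells, had a region just before its start (chr3:98013402-98013508, -83 bp). At 0 hours 6.25% and 2.13% of the cells had signal there, and at 24 hours 10.0% and 8.33%. Both 24-hour runs were above both 0-hour runs, and the log2 change was 1.52 (SE 0.97) with an adjusted p of 0.564. The fitted change was 2.55 without run 1 and 1.08 without run 2, and in cells thinned to equal depth it was -0.57. The second region, at -42256 bp, was open in 7 cells in all, between 1.39% and 6.25% of a run. The Notch2 sum was 60.6 and 31.3 normalized CPM at 0 hours and 80.9 and 88.0 at 24 hours, with an adjusted p of 0.728. The region at -83 bp met the minimum through the 24-hour group, and the runs overlapped without it.

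Rbpj encodes the DNA-binding protein of the pathway. Its only member region, chr5:53490926-53491001, lies in an intron of a long transcript, at -99251 bp from the start of Rbpj-201, and had signal in 1, 2, 2 and 0 cells of runs 1 to 4. With 5 cells in all, the log2 change of -0.94 (SE 1.66) had an adjusted p of 0.877 in edgeR. When the starts of all protein-coding transcripts were used, 2 more regions fell to Rbpj. That at -877 bp, with GTGGGAA, had signal in 10.4%, 6.38%, 3.33% and 1.39% of cells, both 24-hour runs being lower. Its log2 change in edgeR was -1.64 (SE 1.13), with an adjusted p of 0.596. With 8 cells at 0 hours and 3 at 24 hours, it met the minimum of 5 cells through the 0-hour group. That at +161 bp had 10.4%, 2.13%, 11.7% and 2.78%, with each time-point spread as wide as the other.

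Maml1, the coactivator of the complex, had the second most frequently open region, at its start (chr11:50292350-50292499, -114 bp). Signal was found in 33.3% of cells in run 1 and in 12.8%, 15% and 11.1% in runs 2, 3 and 4. Run 1 stood apart from the other 3 runs, including the run at the same time-point. After scaling, the runs had 133, 94.0, 88.9 and 110.0 normalized CPM, and the log2 change was -0.21 (SE 0.60) with an adjusted p of 0.929. An intron 1 region, which also overlaps the antisense gene Gm26542, was open in 7 cells.

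Hes1 encodes a repressor of the basic helix-loop-helix family and is the best known target of the pathway. Its promoter region with the paired TGGGAA had signal in 7 of 48 cells of run 1 (14.6%), 2 of 47 of run 2 (4.26%), 4 of 60 of run 3 (6.67%) and 5 of 72 of run 4 (6.94%). The 24-hour runs lay between the 0-hour runs. The intervals were 6.07% to 27.8%, 0.52% to 14.5%, 1.85% to 16.2% and 2.29% to 15.5%. The log2 change was 0.28 (SE 0.84) with an adjusted p of 0.933 in edgeR. It was negative when cell numbers served as offset (-0.28), without run 2 (-0.25) and without run 4 (-0.069), and it was 1.53 without run 1. The coding exon 4 region, at +1767 bp, showed the same order of runs, with 10.4%, 2.13%, 5% and 6.94%.

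Away from the promoter, 2 Hes1 regions had both 24-hour runs below both 0-hour runs. The region at -3817 bp had signal in 8.33%, 4.26%, 1.67% and 0% of cells, a log2 change of -2.65 (SE 1.65) and an adjusted p of 0.550. It had 6 cells at 0 hours and 1 at 24 hours, and so met the minimum through the 0-hour group. The region at +5246 bp, behind the gene, had 10.4%, 2.13%, 1.67% and 1.39%, a log2 change of -2.05 (SE 1.41) and an adjusted p of 0.598, and here the 24-hour shares were close to run 2. With 6 cells at 0 hours and 2 at 24 hours, it too met the minimum through the 0-hour group. The 2 regions farther upstream lie in or at the start of the lincRNA 9030404E10Rik, which covers this stretch. Signal was found in 12.5%, 2.13%, 11.7% and 6.94% of cells at -25924 bp and in 10.4%, 2.13%, 5% and 5.56% at -40515 bp.

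Summed over the 6 regions, Hes1 had a normalized CPM of 291 and 104 at 0 hours and of 243 and 242 at 24 hours. The 24-hour runs were close together and lay between the 0-hour runs. The log2 change of 0.23 (SE 0.44) had an adjusted p of 0.900. It turned negative when cell numbers served as offset (-0.34), a scaling that moves the median of all genes from 0.15 to -0.33. It was also negative without run 2 (-0.26), with regions within 10 kb (-0.091) and within 100 kb (-0.22), and it was 1.23 without run 1. Signal in any Hes1 region was found in 41.7%, 12.8%, 21.7% and 25% of the cells of runs 1 to 4, and 17 of these 57 cells had it in 2 or more regions. The cells with Hes1 signal had a median of 2791 counts and those without 1784. The genes most like Hes1 over the 4 runs, among 381 genes with at least as many counts, were Kansl1, Cyfip2 and Actg1. Likeness was the distance between log2 CPM of the gene sums, each centred on its own mean, which was 0.21, 0.23 and 0.31 for these genes against a median of 1.25. All of them share the low value of run 2, with 125, 167 and 146 normalized CPM there. That follows from their choice by likeness to Hes1.

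Hes6 encodes a relative of Hes1 that counteracts it. Its region at the start of the longest coding transcript (-84 bp) was the most frequently open member, with signal in 10 of 48 cells (20.8%), 7 of 47 (14.9%), 12 of 60 (20.0%) and 23 of 72 (31.9%). Run 4 was the highest, and run 3 lay below run 1, so the groups overlapped as shares of cells. As normalized CPM the 24-hour runs, at 169.8 and 220.0, were above the 0-hour runs, at 91.0 and 125. The log2 change was 0.87 (SE 0.54) with an adjusted p of 0.550. The region at -1033 bp had signal in 12.5%, 4.26%, 6.67% and 0% of cells. Over both regions the sum was 146 and 146 normalized CPM at 0 hours and 218 and 220.0 at 24 hours. Runs of a time-point differed little in this sum but not in its regions, where that at -1033 bp had 54.6, 20.9, 48.5 and 0 normalized CPM. Signal in any Hes6 region was found in 27.1%, 19.1%, 25% and 31.9% of the cells of runs 1 to 4, which overlapped. The log2 change of the sum, 0.58 (SE 0.47), had an adjusted p of 0.669 in edgeR. It stayed positive in each alternative.

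Dtx1 encodes Deltex, a ubiquitin ligase that acts on Notch signalling and is itself induced by it. The intron 2 region at +5270 bp had signal in 0 of 48 and 0 of 47 cells at 0 hours and in 2 of 60 (3.33%) and 4 of 72 cells (5.56%) at 24 hours. The 0 of 95 cells at 0 hours allow a share of up to 3.16%, which covers counting error only. With 6 cells in all, the region met the minimum of 5 cells only through the 24-hour group, so that the values are a description. The adjusted p in edgeR was 0.319. The second intron 2 region, at +7316 bp, had signal in 4, 1, 1 and 3 cells. Dtx1 had 36.4, 10.4, 24.3 and 80.7 normalized CPM in sum, with overlapping groups.

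Nrarp, a feedback inhibitor that the pathway induces, had a region at its start (chr2:25180608-25180751, -79 bp) with signal in 14.6%, 8.51%, 6.67% and 15.3% of cells. The highest and the lowest share were both from 24-hour runs. The region at +5110 bp was open in 1, 1, 7 and 1 cells, so its log2 change of 2.21 (SE 1.19, adjusted p = 0.461) rests on run 3. The region at -17221 bp was open in 5 cells. Over the 3 regions the sum was 78.8 and 94.0 normalized CPM at 0 hours and 162 and 169 at 24 hours, with both 24-hour runs higher. Without the region at +5110 bp, which met the minimum through the 24-hour group, the runs had 72.8, 73.1, 48.5 and 161 normalized CPM, and run 3 was the lowest of the 4. With all 3 regions, this was the gene sum with the lowest p, at a log2 change of 0.94 (SE 0.56), an unadjusted p of 0.0977 and an adjusted p of 0.508. It was above 0 in each alternative, and 0.59 (adjusted p = 0.828) with the region within 1 kb of the start alone.

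**Figure D3:**
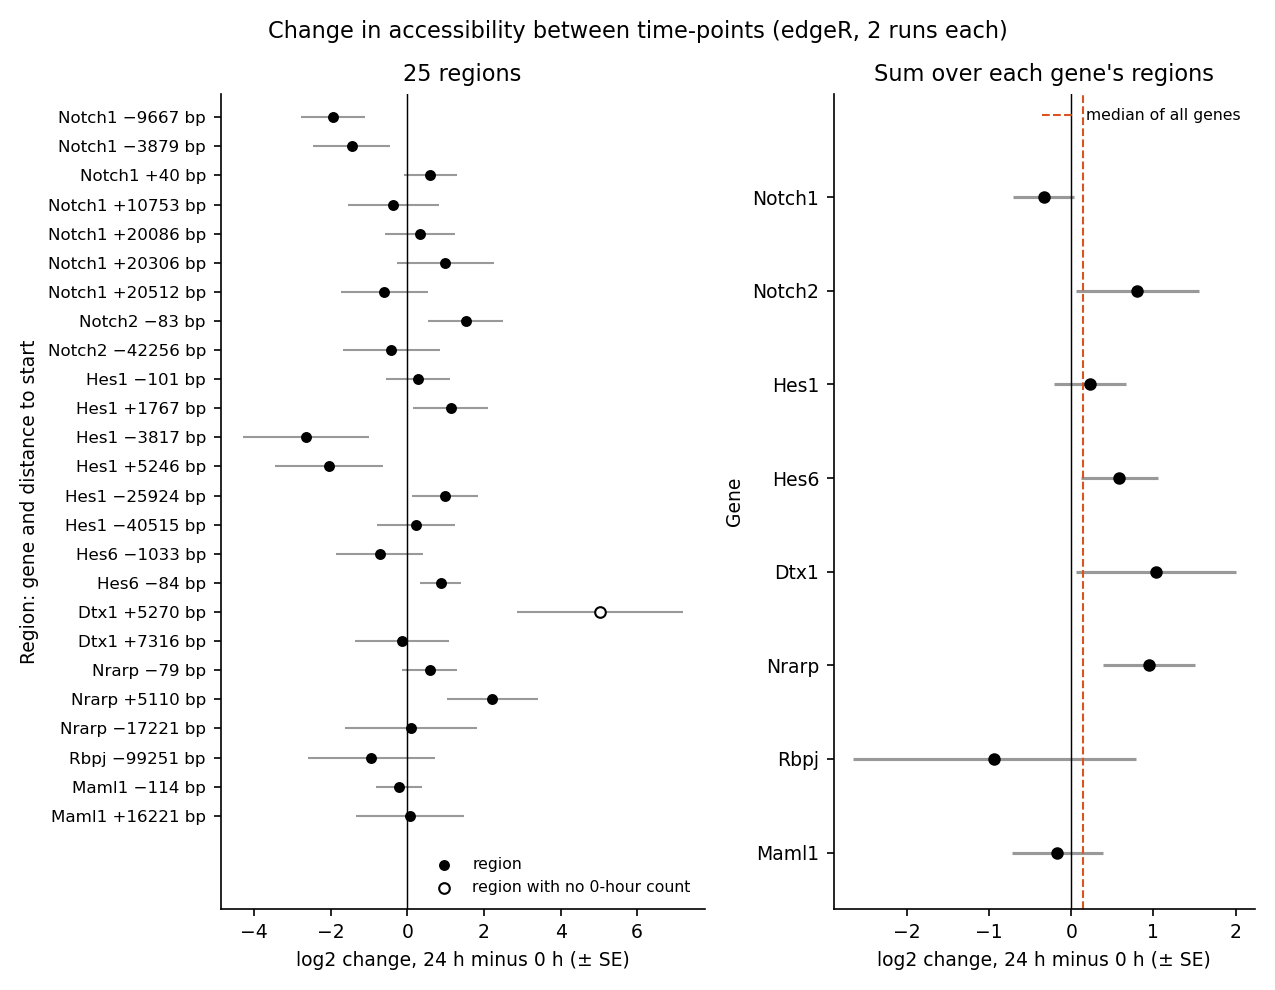
Log2 change at 24 hours against 0 hours with its SE (x axis) for the 25 regions (left) and for the sum over each gene's regions (right), from edgeR fits on sums per run. The open point is the Dtx1 region with no 0-hour count, whose fitted value is no measure of size, and the dashed line is the median of all genes (0.15).

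Across the 8 gene sums, 0 passed the threshold, against 0.263% of all 9901 gene sums, and 0 had an unadjusted p under 0.05, against 12.5% of all. DESeq2 also called 0 of the 8 (0% of all). The adjusted p ran from 0.508 for Nrarp to 0.942 for Maml1. The change was above 0 for 5 genes and below 0 for Notch1, Rbpj and Maml1, with a median of 0.41 on the log2 scale beside 0.15 over all genes. Hes6, Nrarp and Notch2 had both 24-hour runs above both 0-hour runs, which was so for 24.6% of all gene sums, and Notch1 had both below, as did 19.4% of all. Without the regions that met the minimum through 1 time-point only, the runs of Notch1, Notch2 and Nrarp overlapped, those of Hes6 stayed apart, and those of Hes1, which lost its 2 regions that were lower at 24 hours, came apart, with 200.1 and 73.1 normalized CPM at 0 hours and 226 and 235 at 24 hours. No region of Dtx1 was left. In the full sums, the runs of Hes1, Dtx1, Rbpj and Maml1 overlapped.

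**Figure D4:**
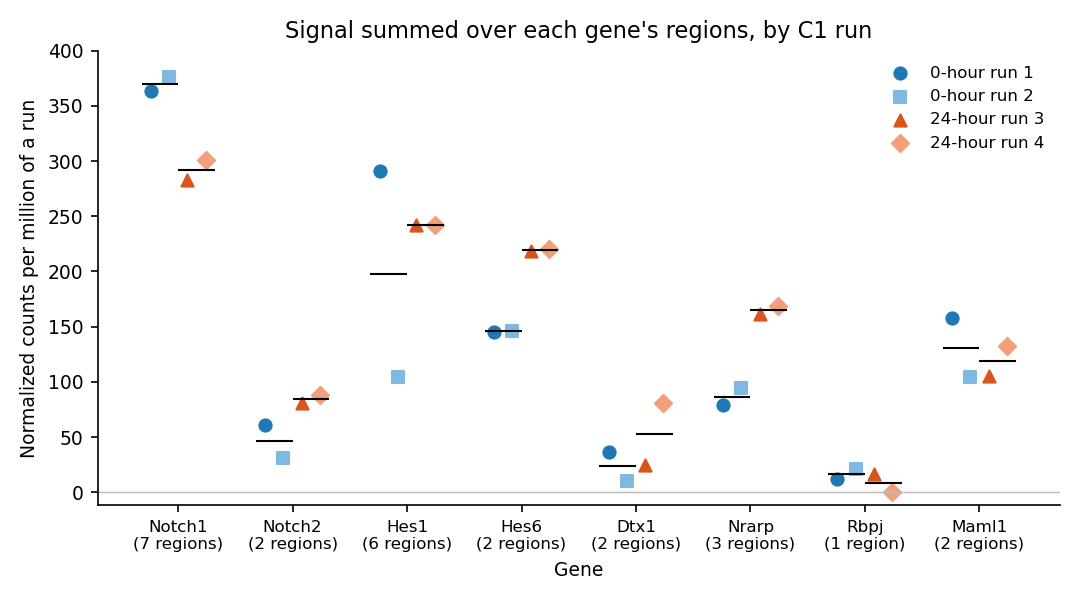
Normalized CPM summed over the regions of each gene (y axis), with 1 point for each run and a short line at the mean of the 2 runs of a time-point. Hes6, Nrarp and Notch2 show 24-hour points above the 0-hour points, for Nrarp only with the region at +5110 bp and for Notch2 only with that at -83 bp. The 0-hour points of Hes1 lie at 291 and 104, on either side of the 24-hour points.

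The regions near start sites can be ordered by how often they were open, per 100 bp of region, over all 227 cells. Hes6 had signal in 34.7 cells per 100 bp and Maml1 in 26, followed by Notch1 and Nrarp, both at 18.1, Notch2 at 15 and Hes1 at 12.0. The Rbpj region at +161 bp, assigned by transcript starts, was the lowest at 10. As shares of all cells, Hes1 (7.93%) lay above Notch2 (7.05%). The range over the 4 runs, as shares of cells, was 14.9% to 31.9% for Hes6, 11.1% to 33.3% for Maml1, 8.33% to 16.7% for Notch1, 6.67% to 15.3% for Nrarp, 2.13% to 10.0% for Notch2 and 4.26% to 14.6% for Hes1. For Rbpj it was 2.13% to 11.7%. Neighbours in this order overlapped. The range of Hes6 lay above those of Notch2, Hes1 and Rbpj, and that of Maml1 above that of Notch2. Hes6 and Hes1 were barely apart, with 7 of 47 cells in the lowest run of Hes6 and 7 of 48 in the highest of Hes1.

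Beyond the 8 genes, a list of 66 further genes of the pathway was examined, of which 42 had a region (89 regions in all). No gene of the list passed the adjusted threshold in either direction in edgeR, and DESeq2 called 0 as well. At an unadjusted p under 0.05 there were 6 genes with edgeR (14.3% of the 42, against 12.5% of all 9901 gene sums) and 4 with DESeq2 (5.61% of all gene sums). There was 1 such gene without 0-hour run 1 (8.48% of all gene sums), and there were 2 without run 2 (6.04% of all) and 9 without 24-hour run 3 (19.8% of all). The changes were above 0 in 21 genes and below 0 in 21, with a median of 0.03 on the log2 scale. The 24 genes without a region include each listed Hes and Hey gene but Hes3, the ligands Dll3 and Jag1, and the T-lineage targets Ptcra, Gata3 and Bcl11b.

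The values of these 6 genes are given as a description, since none passed the adjusted threshold, and the fitted change was below 0 in 4 of them and above 0 in 2. Tcf7, a T-lineage transcription factor induced by Notch, had signal in 20.8% and 10.6% of the cells at 0 hours, against 0% and 2.78% at 24 hours (log2 change -2.73, SE 1.03, adjusted p = 0.226). None of its 3 regions reached the minimum of 5 cells at 24 hours, so its direction and test are a description only. Which regions of the other listed genes did so was not counted. Il2ra, the alpha chain of the interleukin-2 receptor and also a surface marker of pre-B cells, had 37.5% and 25.5% against 15% and 5.56% (log2 change -1.38, SE 0.53, adjusted p = 0.232). Without 24-hour run 3, Il2ra passed the threshold, with an adjusted p of 0.0389, in a fit with a single 24-hour run that called 5.61% of all gene sums. In both genes the 24-hour runs were below the 0-hour runs. The T cell markers summed to 176 and 167 normalized CPM at 0 hours and to 186 and 110.0 at 24 hours, and the pre-B markers to 1692 and 1515 against 1787 and 1408. For both lists the 24-hour runs were the highest and the lowest of the 4. Of the 4 T cell markers with a region, Zap70 had signal in 18.8% and 14.9% of the cells at 0 hours and in 8.33% and 6.94% at 24 hours, and Cd3d in 12.5% and 6.38% against 5% and 4.17%, so that both were lower in the 24-hour runs. Lck had 4.17% and 0% against 5% and 0%, which overlapped, and Cd5 had 2.08% and 0% against 3.33% and 2.78%, higher in the 24-hour runs, with 5 cells each in all. Of the 9 pre-B markers with a region, Cd79a, Igll1, Vpreb1 and Il7r had both 24-hour shares below both 0-hour shares, and 0 had both above. For Vpreb1 the shares were close, at 8.33% and 8.51% against 6.67% and 6.94%. Of all single regions, 33.7% lay lower and 8.59% higher in this way, and the share over all genes was not computed. The part of these markers in the values of Tcf7 and Il2ra was not tested. Psen2, a catalytic subunit of the gamma-secretase that cleaves the receptors, had 41.7% and 31.9% against 6.67% and 15.3% (log2 change -1.25, SE 0.48, adjusted p = 0.24). The receptor gene Notch3 had 25% and 12.8% against 3.33% and 4.17% in its 1 region (log2 change -1.99, SE 0.79, adjusted p = 0.255).

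Fbxw7, whose product targets the Notch intracellular domain for degradation, had signal in 16.7% and 8.51% of the cells at 0 hours, against 28.3% and 23.6% at 24 hours (log2 change 1.49, SE 0.58, adjusted p = 0.248). Nedd4, a ubiquitin ligase, had 29.2% and 12.8% against 26.7% and 19.4%, which overlapped as shares, at a log2 change of 1.12 (SE 0.52, adjusted p = 0.346).

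**Figure D5:**
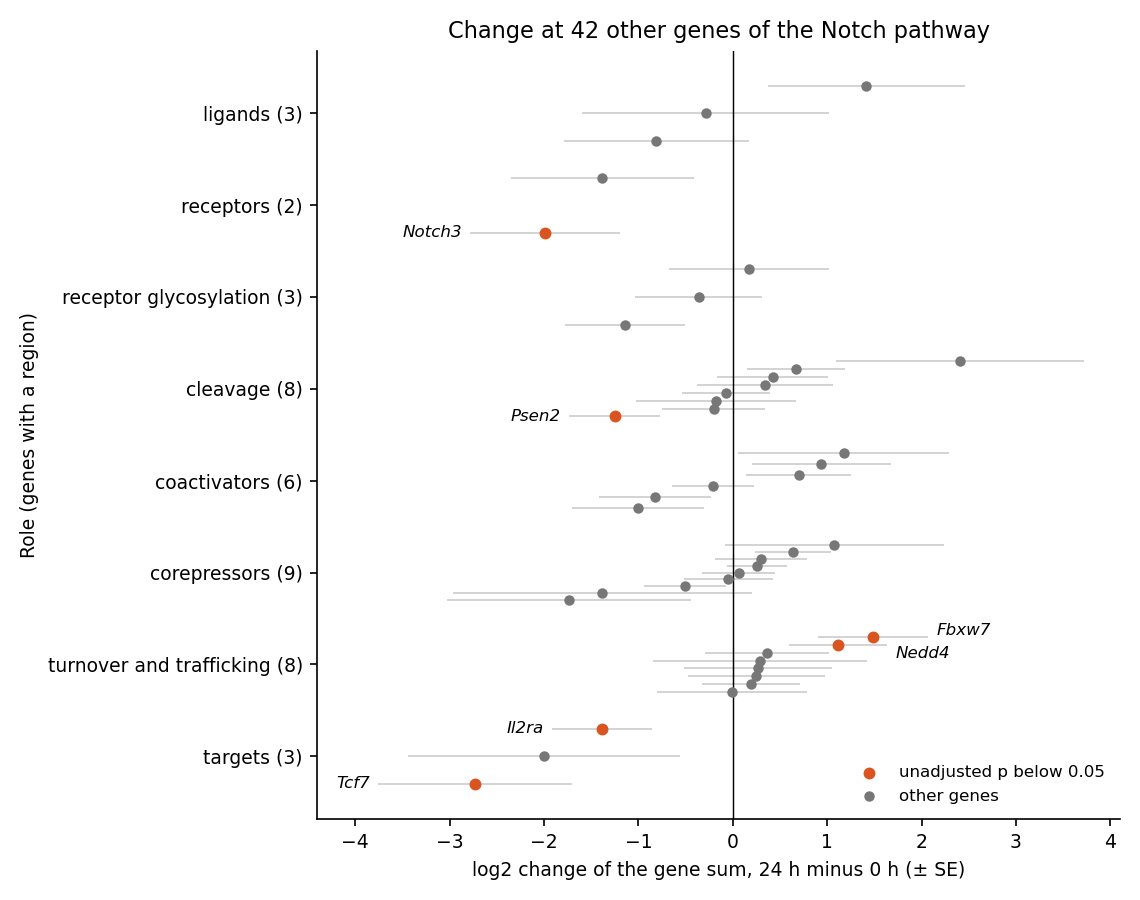
Log2 change of the gene sum at 24 hours against 0 hours with its SE (x axis) for the 42 listed pathway genes with a region, by role (y axis, number of genes in brackets). The 6 orange points are genes at an unadjusted p under 0.05, of which Tcf7, Il2ra, Psen2 and Notch3 lie below 0 and Fbxw7 and Nedd4 above, and no gene passed the adjusted threshold.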

How the data were processed

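The authors mapped single-cell ATAC-seq libraries to mm10 with Bowtie2, removed duplicates with Picard, used HOMER to call peaks on bulk replicates and deposited 1 matrix of raw whole-number counts with 20103 regions and 227 cells. The study describes a matrix with more regions and a slightly different split of the cells between time-points, so that a gene without a region has none in the matrix used here. The matrix holds no value over 2, and the treatment of higher values was not stated. Since cells of a run are not replicates, their counts were summed by run. Runs held 92639 to 164357 counts. Regions, and sums over the regions of each gene, were tested across the whole table with edgeR 4.0.16 in R 4.3.3 (quasi-likelihood test, TMM, Benjamini-Hochberg, threshold 0.05). The test was checked on simulated data. At a spread like that of these data it called none of the regions changed there, so a region not called is not shown to be unchanged. Alternatives were DESeq2 1.42.0, other scalings, filters, assignments, thinned cells and each run left out. Normalized CPM are sums over effective totals. Limits of a count of 0 (3 counts) cover counting error only. The numbers of the runs are not stated to pair them. Doublets were not called, because capture sites had been inspected by eye.

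Regions were assigned to genes by their midpoint with GENCODE vM21, and sequences were read from the GRCm38 (mm10) reference. Genome copies were counted with BLAST 2.17.0 at 90% identity over 80% of a region. All 8 genes and their 25 regions are named. Of the 66 pathway genes, the 6 with the smallest p are named, and for Hes1 the 3 most similar genes. The members and lists were chosen with earlier results of these data known.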

Additional observations from a re-analysis of the deposited data

How the results depend on the processing

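Over the alternatives, 0 of the member regions were called, with a lowest adjusted p of 0.0560 (Notch1 region at -3879 bp, without 24-hour run 3), and 0 of the member gene sums, with a lowest of 0.237 (Notch1, with only the regions at -9667 and -3879 bp, which lie within 10 kb of its first annotated start). Of the 42 listed pathway genes, 0 to 1 were called with a run left out, the 1 being Il2ra. Of 215 values under alternatives of the member gene sums and of the region nearest each gene's annotated start (for Notch1 that at -9667 bp and for Hes6 that at -1033 bp), 199 kept their sign and 16 changed it, none of them called. The sign of the Hes1 sum changed when cell numbers served as offset (-0.34), within 10 kb (-0.091) and within 100 kb (-0.22), and it ran from -0.26 to 1.23 with a run left out. The Hes1 promoter region gave -0.28 with that offset and -0.25 to 1.53 with a run left out. The Notch2 start region gave -0.57 in thinned cells. With a run left out, the range was -5.44 to 0.26 for the Hes6 region, -0.077 to 2.26 for the Dtx1 sum, -0.61 to 1.23 for the Nrarp start region, -4.14 to 0.045 for the Rbpj sum, -4.14 to 0.039 for its region, -0.41 to 0.21 for the Maml1 sum and -0.42 to 0.11 for its start region. The low ends for the Hes6 region and for Rbpj come from the fit without run 3, in which the remaining 24-hour run had 0 counts, and are no measure of size.

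Member regions whose runs did not overlap numbered 6 lower and 2 higher as shares of cells, 5 lower and 5 higher as normalized CPM (25.7% and 19.3% of all regions), and 7 to 16 lower (16, 12 and 11 without runs 2, 3 and 4) and 2 to 8 higher (8, 6 and 4 without runs 1, 3 and 4) with a run left out. Without the regions that met the minimum through 1 time-point only, a setting added after seeing the data, the member gene sums whose runs did not overlap went from 1 to 0 lower and from 3 to 2 higher. The share of all gene sums that lie apart in this setting was not computed. Over the whole matrix, the 11 called regions became 33 with run totals, 3 with the cell numbers as offset, 0 with RLE size factors, with DESeq2, with a summed count of at least 20, with values as detected or not and in thinned cells, and 1 to 797 with a run left out (6, 1 and 797 without runs 1, 2 and 3). The 26 called gene sums became 15 with values as detected or not, 0 with the cell numbers as offset, with DESeq2, with a summed count of at least 20 and in thinned cells, 2 with transcript starts and within 10 kb, 9 within 100 kb, 4 within 1 kb and 0 to 555 with a run left out (2, 0, 555 and 8 without runs 1 to 4). A replicate block, which takes the number of a run within its time-point as a pair and was chosen after seeing the data, called 0 member regions, 0 member gene sums, 11 regions and 8 gene sums, and with 2 pairs the numbers were not taken to pair the runs. The alternatives for the pathway list and for counts over the whole matrix were also added after seeing the data. The cause of these changes was not tested. With a run left out, the single run of its time-point is assumed to vary like the other runs. A member region was detected in a median of 12 of 227 cells (13 over all regions), and the share of depth and of the number of runs in what could be detected was not tested.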

Other observations

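Widening the window to 100 kb added 4 regions to Hes1 and none to the other genes. Of these, the region at -55535 bp from Hes1 had signal in 22.9%, 4.26%, 3.33% and 1.39% of the cells of runs 1 to 4, and that at 80316 bp in 27.1%, 8.51%, 10.0% and 4.17%. The Hes1 promoter region had 14.6%, 4.26%, 6.67% and 6.94%. Both 24-hour runs lay below both 0-hour runs at the upstream region but not at the downstream one, and the adjusted p in edgeR was 0.496 and 0.625. With 13 cells at 0 hours and 3 at 24 hours, the upstream region met the minimum of 5 cells through the 0-hour group. The other 2 added regions, at -68945 and -56262 bp, were open in 5 cells each.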
